A study of Mus musculus with 6 samples.

Results

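The genes described here encode the chain that carries a signal from the G protein-coupled oestrogen receptor to cyclic AMP (cAMP) and on to transcription. They are the rows of the deposited expression table with the symbols Gper1, Gnas, Adcy6, Adcy7, Adcy9, Prkaca, Creb1, Crem, Pde4d and Sik1, 10 genes of 24421 in the table. RNA of murine pancreatic ductal adenocarcinoma cells was sequenced in 6 libraries. The cells were the lines 2838c3, 6419c5 and 6499c4, which came from the Stanger laboratory and grew in DMEM with serum. Each line was exposed for 16 h either to the vehicle, DMSO, or to 250 nM G-1, a synthetic agonist of the receptor, so every group of a line and a treatment is 1 library. The labels name no genotype, transgene or sex of the source animals and do not say whether a line is a clone, and all 6 cultures carried the same label of cell type. Values are FPKM (fragments per kilobase of transcript), which allow levels of different genes to be compared per length. Libraries were scaled by size factors from the median of gene ratios between libraries, and not by read totals.

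The receptor encoded by Gper1 is a membrane protein that can couple to Gs, the stimulatory G protein. The Gs alpha subunit activates adenylyl cyclases, which make cAMP. The messenger releases the catalytic subunits of protein kinase A (PKA) from their regulatory subunits, and PKA phosphorylates CREB, a transcription factor bound at cAMP response elements. Phosphodiesterases degrade cAMP and so shorten the signal. CREB targets include brakes on the same pathway, among them phosphodiesterases of the PDE4 family, short repressor forms of CREM, and salt-inducible kinase 1, which keeps the CREB coactivators of the CRTC family out of the nucleus.

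Promoter windows are shown because CREB acts through a short DNA element, because 4 of the members hold part of it near their start, and because the receptor's own window can be read beside them. The RefSeq promoter table (build GRCm38.p6), with windows from 250 bases before to 50 bases after an annotated start, held 13 windows for 7 of the 10 members. Adcy6, Crem and Sik1 are named only. Both strands were searched for the full element TGACGTCA and for its core TGACG, and since the full element reads the same on both strands, each full element also counts as a core on each. The full element was in 0 of the 13 windows, against 1.79% of all 32851 windows of the table. The core was in 6 windows, those of Gnas, Prkaca, Adcy7 and Adcy9, and 20.8% of all windows hold it. Of the 3 Gnas windows among these 6, 2 overlap almost fully and share the same match, so they do not count separately. The core itself contains CG. The first listed windows of Gnas, Prkaca and Adcy9 hold 27, 31 and 42 CG pairs and that of Adcy7 holds 6, where the median of all windows is 7. The share with the core was not compared with windows of like CG content. Capitals mark the core on either strand (CGTCA where it lies on the other strand). The windows printed, 5′ to 3′, are the first listed for each gene: Gper1 at chr5:139422929-139423228 (plus strand), Gnas at chr2:174327499-174327798 (plus strand), Adcy7 at chr8:88282742-88283041 (plus strand), Adcy9 at chr16:4420449-4420748 (minus strand) and Prkaca at chr8:83972728-83973027 (plus strand).
Gper1: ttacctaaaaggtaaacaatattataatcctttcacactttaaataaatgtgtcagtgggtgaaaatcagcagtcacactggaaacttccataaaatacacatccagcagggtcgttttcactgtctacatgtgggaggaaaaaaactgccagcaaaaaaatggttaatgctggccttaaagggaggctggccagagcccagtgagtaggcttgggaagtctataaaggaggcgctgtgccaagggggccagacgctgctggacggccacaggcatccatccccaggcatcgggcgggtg
Gnas: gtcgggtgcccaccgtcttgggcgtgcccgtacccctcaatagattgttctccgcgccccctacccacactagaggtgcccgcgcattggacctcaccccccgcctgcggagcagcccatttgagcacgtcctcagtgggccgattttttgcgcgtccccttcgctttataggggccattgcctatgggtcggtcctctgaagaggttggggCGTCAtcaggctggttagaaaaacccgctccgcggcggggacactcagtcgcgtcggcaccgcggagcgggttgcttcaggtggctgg
Adcy7: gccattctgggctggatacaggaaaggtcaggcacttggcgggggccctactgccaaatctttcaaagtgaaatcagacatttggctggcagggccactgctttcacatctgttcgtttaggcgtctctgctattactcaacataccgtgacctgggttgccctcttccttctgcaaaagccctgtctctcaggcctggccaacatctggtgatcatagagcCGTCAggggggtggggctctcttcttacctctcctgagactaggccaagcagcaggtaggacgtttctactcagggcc
Adcy9: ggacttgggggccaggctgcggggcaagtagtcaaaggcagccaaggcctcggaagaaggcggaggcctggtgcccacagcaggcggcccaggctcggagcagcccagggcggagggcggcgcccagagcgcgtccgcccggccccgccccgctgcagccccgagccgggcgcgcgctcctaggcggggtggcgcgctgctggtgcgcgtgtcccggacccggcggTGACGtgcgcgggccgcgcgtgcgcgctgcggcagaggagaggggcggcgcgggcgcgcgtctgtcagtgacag
Prkaca: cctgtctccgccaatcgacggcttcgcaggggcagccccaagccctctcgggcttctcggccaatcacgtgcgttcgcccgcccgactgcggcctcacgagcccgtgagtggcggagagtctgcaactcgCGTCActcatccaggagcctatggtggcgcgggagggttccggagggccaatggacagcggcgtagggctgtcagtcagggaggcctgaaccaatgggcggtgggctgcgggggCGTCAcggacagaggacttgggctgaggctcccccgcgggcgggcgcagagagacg
In the Prkaca window the core begins at positions -120 and -6 from the annotated start. It begins at -38 in the printed Gnas window, at -28 in that of Adcy7 and at -24 in that of Adcy9. A further Gnas window, at chr2:174329756-174330055, holds the core at -216. The windows were not matched to single transcripts of Gnas, so the printed one need not be that of Gs alpha. The window of Gper1 holds no such letters, and 48.3% of its bases are G or C, below those of the windows of Prkaca (69.7%) and Adcy9 (78.3%). The median of all windows is 52.7%, and the window of Pde4d has 39.7%. The match is a description of the letters and not of a bound site.

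No read of the receptor gene was counted. Gper1 stood at 0 FPKM and 0 reads in all 6 libraries, vehicle and G-1 alike. The limit that such a count sets, 3 reads, equals 0.337 to 0.55 RPM (reads scaled to all reads in genes) in a single library and 0.0649 RPM over all libraries together, for counting error only. Its position is chromosome 5, 139423151 to 139427800, plus strand (GRCm38, GENCODE annotation). It sits within an intron of 3110082I17Rik, a minus-strand gene with 223 to 283 reads per library of which 0 exons overlap Gper1. The sources used here do not give the build or strand setting of the authors' counting. The nuclear oestrogen receptors were near 0 as well: Esr1, the gene of receptor alpha, reached 0.503 FPKM at most and Esr2, the gene of receptor beta, 0.065 FPKM.

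Gnas, the gene of the Gs alpha subunit, was the most abundant member. Its levels were 120.5 FPKM with vehicle and 122.7 with G-1 for 2838c3, 96.7 and 93.2 for 6419c5, and 93.5 and 92.7 for 6499c4. Both libraries of 2838c3 therefore lay above the other 4, which did not separate by line. The difference from 2838c3 was -0.35 on the log2(FPKM + 1) scale for 6419c5 (SE 0.07, limma, Benjamini-Hochberg adjusted p = 0.00392) and -0.38 for 6499c4 (SE 0.07, adjusted p = 0.00236). Between 6499c4 and 6419c5 it was -0.03 with a 95% interval from -0.19 to 0.13 (adjusted p = 0.759), and its sign changed when libraries were scaled by read totals (0.08) or by quantiles (0.03). Gnas (chromosome 2, 174284320 to 174346744, plus strand) overlaps an antisense transcript, Nespas, which had 2 to 10 reads per library, and Gm20721, so its reads are exact only as far as the counting kept these apart. The locus has several annotated starts, and these values do not tell its transcripts apart. The levels are therefore those of the gene as a whole and not of Gs alpha transcripts alone.

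Adcy6 made up most of the adenylyl cyclase transcripts. This cyclase is activated by Gs and inhibited by calcium. It stood at 35.8 FPKM with vehicle and 32.9 with G-1 for 2838c3, 21.6 and 20.6 for 6419c5, and 27.0 and 25.8 for 6499c4. The lines did not overlap, and their order was 2838c3, 6499c4, 6419c5. The difference from 2838c3 was -0.68 on the log2 scale in 6419c5 (SE 0.08, limma adjusted p = 0.000446) and -0.37 in 6499c4 (SE 0.08, adjusted p = 0.00638). The level in 6499c4 was above that in 6419c5 by 0.31 (SE 0.08, adjusted p = 0.0169). The gene overlaps an antisense transcript, Gm29331, on chromosome 15.

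Adcy9, a cyclase that is less sensitive to the plant activator forskolin, was low and highest in 6419c5. It had 2.19 FPKM with vehicle and 1.91 with G-1 for 2838c3, 3.48 and 3.89 for 6419c5, and 1.67 and 2.23 for 6499c4. Both 6419c5 libraries exceeded the other 4, while 2838c3 and 6499c4 overlapped. The difference of 6419c5 from 2838c3 was 0.62 (SE 0.17, limma adjusted p = 0.0182), and that of 6499c4 from 6419c5 was -0.67 (SE 0.17, adjusted p = 0.0149). The first was no longer called without the G-1 library of 2838c3 (0.45, adjusted p = 0.166), without the vehicle library of 6419c5 (0.65, adjusted p = 0.0905) or without its G-1 library (0.59, adjusted p = 0.11), and stood at 0.48 with quantile scaling (adjusted p = 0.0539). The second was lost without the vehicle library of 6419c5 (-0.70, adjusted p = 0.0802), without its G-1 library (-0.65, adjusted p = 0.107) or without the vehicle library of 6499c4 (-0.54, adjusted p = 0.0813).

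Adcy7, a cyclase that is stimulated by G protein beta-gamma subunits and is best known from blood cells, had most of its reads in 6419c5. It had 80 reads with vehicle and 53 with G-1 there (1.77 and 1.54 FPKM), 7 and 12 reads in 2838c3 (0.129 and 0.222 FPKM) and 6 and 3 in 6499c4 (0.104 and 0.0591 FPKM). With a mean of 0.637 FPKM it did not pass the level filter of 1 FPKM. Between the vehicle libraries the scaled read ratio of 6419c5 to 2838c3 was 13.7 (exact 95% binomial interval 6.35 to 35.1, counting error only). The ratio of 6419c5 to 6499c4 was 17.1 (7.52 to 48.0). In a fit without the filter Adcy7 was higher in 6419c5 than in 2838c3 by 1.17 (SE 0.10, limma adjusted p = 0.00242) and lower in 6499c4 than in 6419c5 (-1.29, SE 0.10, adjusted p = 0.00228). Of 8 leukocyte markers, 1 reached a mean of 1 FPKM (Cd68), Adgre1 was at 0 in all libraries and Ptprc did not exceed 0.154 FPKM, and their summed level was 0.788 to 2.77 FPKM with vehicle and 2.03 to 3.38 with G-1.

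The make-up of the cyclase pool differed between the lines more than its total. Summed over the 10 cyclase genes, the pool was 35.1 to 38.2 FPKM in 2838c3, 28.5 to 29.0 in 6419c5 and 37.1 to 38.6 in 6499c4. Adcy6 supplied 93.7% of it with vehicle and 93.8% with G-1 for 2838c3, 74.5% and 72.2% for 6419c5, and 70.1% and 69.4% for 6499c4. The rest was mainly Adcy9, Adcy3 and Adcy7 in 6419c5 and Adcy3 in 6499c4. Adcy3, which is best known from olfactory neurons and primary cilia, stood at 0.0494 and 0.0248 FPKM for 2838c3, 1.72 and 2.06 for 6419c5, and 9.54 and 8.75 for 6499c4, and differed between each pair of lines (6499c4 against 2838c3 3.29, SE 0.17, limma adjusted p = 7.28e-06).

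**Figure D1:**
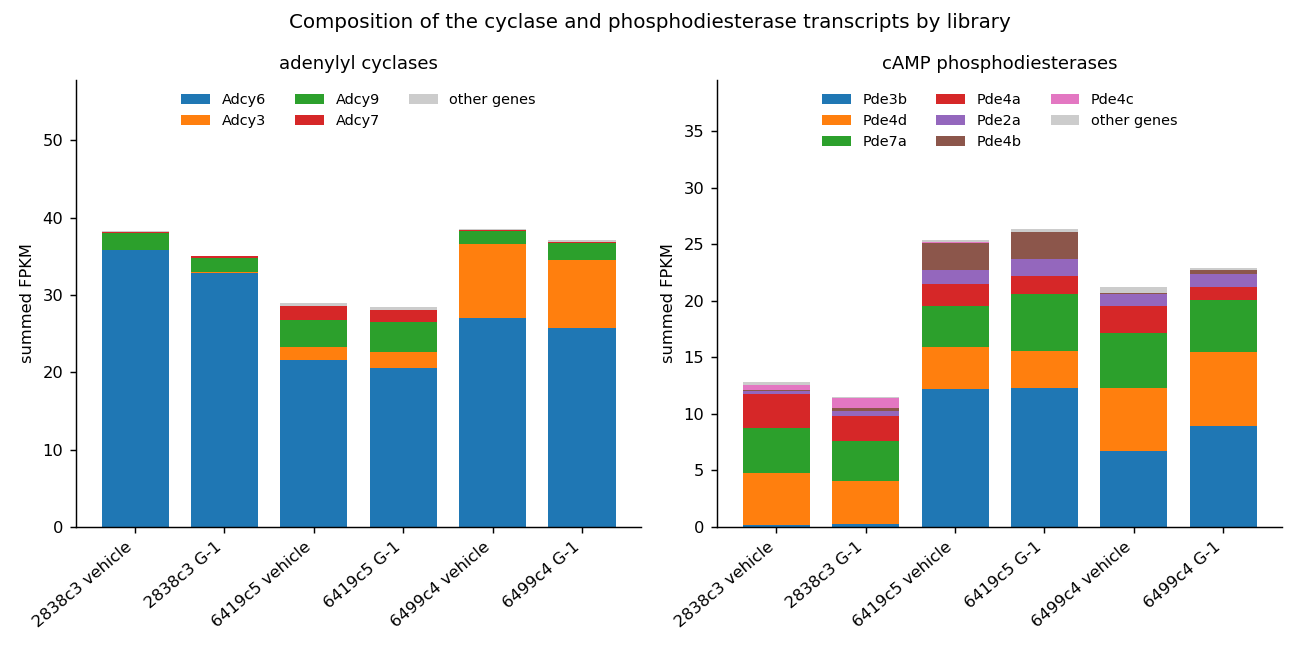
Summed FPKM of the adenylyl cyclase genes (left) and of the cAMP phosphodiesterase genes (right) in each of the 6 libraries, stacked by gene, with genes below 5% of the family in every library in grey. Adcy6 fills 93.7% of the cyclase bar in the vehicle library of 2838c3 and 70.1% in that of 6499c4, and Pde3b is nearly absent from both bars of 2838c3.

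Prkaca encodes the alpha catalytic subunit of PKA and was the second most abundant member. Its levels were 75.5 FPKM with vehicle and 68.6 with G-1 for 2838c3, 40.5 and 40.3 for 6419c5, and 47.7 and 52.5 for 6499c4. The lines did not overlap, and 2838c3 stood highest, with a line mean 1.78 times that of 6419c5. Against 2838c3 the difference was -0.82 in 6419c5 (SE 0.09, limma adjusted p = 0.000273) and -0.51 in 6499c4 (SE 0.09, adjusted p = 0.0019). The smaller gap between 6499c4 and 6419c5 (0.30, SE 0.09, adjusted p = 0.0249) lost its call without the vehicle library of 6419c5 (adjusted p = 0.123), without its G-1 library (0.136) or without the G-1 library of 6499c4 (a difference of 0.20, adjusted p = 0.186), and also with no variance trend (adjusted p = 0.0689) and with no level filter (adjusted p = 0.052).

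The other PKA genes set these levels in context. Prkacb, the beta catalytic subunit, ran below Prkaca in every library, with a Prkaca to Prkacb ratio of FPKM from 1.81 to 2.74. The regulatory subunit Prkar1a moved the other way between lines, at 86.0 and 89.8 FPKM for 2838c3, 133.8 and 127.1 for 6419c5, and 110.9 and 106.8 for 6499c4 (6419c5 against 2838c3 0.56, SE 0.07, limma adjusted p = 0.000585). The ratio of summed catalytic to summed regulatory FPKM was 0.762 with vehicle and 0.69 with G-1 for 2838c3, 0.366 and 0.381 for 6419c5, and 0.451 and 0.495 for 6499c4. 2838c3 thus had the highest ratio in both treatments. Of 7 PKA genes tested, beside 51.5%, 55.6% and 45.0% of all genes in the 3 pairs, 6 differed between 6419c5 and 2838c3 (Prkar1a and the inhibitor Pkia higher, Prkaca, Prkacb, Prkar2a and Prkar2b lower), and the median difference of the list was -0.39 against 0.00 over all genes. All 7 differed between 6499c4 and 2838c3, with Pkig lower besides those 6 (median -0.51 against -0.01 over all genes). Between 6499c4 and 6419c5, 4 of the 7 differed (Prkaca and Pkia higher, Prkar1a and Pkig lower; median 0.12 against 0.01). The call of Prkar2a in 6499c4 against 2838c3 and that of Prkar1a in 6499c4 against 6419c5 each held in 6 of 13 alternatives.

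Pde4d, a cAMP-specific phosphodiesterase, was highest in 6499c4. It stood at 4.59 FPKM with vehicle and 3.77 with G-1 for 2838c3, 3.71 and 3.28 for 6419c5, and 5.61 and 6.55 for 6499c4. Both libraries of 6499c4 lay above the other 4, and both libraries of 6419c5 lay below those of 2838c3 by a margin that the test did not call (-0.20, 95% interval -0.56 to 0.16, limma adjusted p = 0.304). The difference of 6499c4 from 6419c5 was 0.65 (SE 0.15, adjusted p = 0.0116), and it lost its call without the vehicle library of 6419c5 (0.71, adjusted p = 0.0648), without its G-1 library (0.59, adjusted p = 0.107) or without the G-1 library of 6499c4 (0.46, adjusted p = 0.0995). That from 2838c3 was 0.45 (SE 0.15, adjusted p = 0.0384). It held in 5 of 12 alternatives, with adjusted p up to 0.288 and a difference of 0.26 without the G-1 library of 6499c4, and 0.32 (adjusted p = 0.252) without the G-1 library of 2838c3. Without the vehicle library of 2838c3, the vehicle library of 6419c5 or the G-1 library of 6419c5 its adjusted p was 0.0614, 0.0691 and 0.0685, and it was 0.0925 with no level filter and 0.083 with quantile scaling.

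Pde4d was 35.8% and 32.8% of the summed cAMP phosphodiesterase FPKM in 2838c3 (vehicle, G-1), 14.6% and 12.5% in 6419c5, and 26.5% and 28.6% in 6499c4. Its share was smallest in 6419c5, where Pde3b, a phosphodiesterase that cyclic GMP inhibits, was highest. Pde3b stood at 0.199 and 0.244 FPKM for 2838c3, 12.2 and 12.3 for 6419c5, and 6.71 and 8.90 for 6499c4 (6419c5 against 2838c3 3.44, SE 0.15, limma adjusted p = 6.07e-06). Abcc4, a transporter that exports cAMP, ran the other way, at 69.0 and 65.2 FPKM in 2838c3 and 14.7 to 17.3 in the other 4 libraries. Of 5 genes tested in this list, Pde3b was higher and Abcc4 lower in 6419c5 than in 2838c3, Pde3b and Pde4d higher and Abcc4 lower in 6499c4 than in 2838c3, and Pde4d higher and Pde3b lower in 6499c4 than in 6419c5. These calls are 2, 3 and 2 of the 5 genes in the 3 pairs, beside 51.5%, 55.6% and 45.0% of all genes tested. The list thus did not stand out from other genes by how often its genes differed. The list medians were -0.20, 0.27 and 0.06, against 0.00, -0.01 and 0.01 over all genes.

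Creb1, the gene of the CREB transcription factor itself, was the member that varied least. Its levels were 8.91 FPKM with vehicle and 7.90 with G-1 for 2838c3, 8.05 and 7.61 for 6419c5, and 8.39 and 7.85 for 6499c4. All lines overlapped, and the highest library was 1.17 times the lowest. No line difference was called, and the intervals were -0.35 to 0.17 (6419c5 against 2838c3), -0.30 to 0.22 (6499c4 against 2838c3) and -0.21 to 0.31 (6499c4 against 6419c5). Crem, whose products include activators and repressors of the CREB type, stood at 1.43 and 1.74 FPKM for 2838c3, 2.60 and 2.42 for 6419c5, and 2.18 and 1.76 for 6499c4, with 52 to 85 reads a library. Both libraries of 6419c5 were above the other 4 for Crem, but its difference from 2838c3 was not called (0.44, 95% interval 0.04 to 0.85, limma adjusted p = 0.0654). It was called on the recovered reads (limma-voom, 0.68, adjusted p = 0.0256) and without a variance trend (adjusted p = 0.0302), and, narrowly, without the vehicle (adjusted p = 0.0499) or the G-1 library (0.0484) of 6499c4. Reads of short repressor forms of Crem cannot be told from those of the full gene in these values.

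Sik1, which encodes salt-inducible kinase 1, was highest in 2838c3. It stood at 8.73 FPKM with vehicle and 9.67 with G-1 for 2838c3, 7.54 and 6.84 for 6419c5, and 5.69 and 6.92 for 6499c4. Both 2838c3 libraries were above the other 4, and the other lines overlapped. The difference of 6499c4 from 2838c3 was -0.49 (SE 0.13, limma adjusted p = 0.0163), and it was not called without the vehicle library of 2838c3 (-0.52, adjusted p = 0.0616), without its G-1 library (-0.45, adjusted p = 0.0983) or without the vehicle library of 6499c4 (-0.37, adjusted p = 0.122). That of 6419c5 from 2838c3 was -0.32 (95% interval -0.62 to -0.01, adjusted p = 0.0804), and limma-voom on the recovered reads called it (-0.34, adjusted p = 0.0325).

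**Figure D2:**
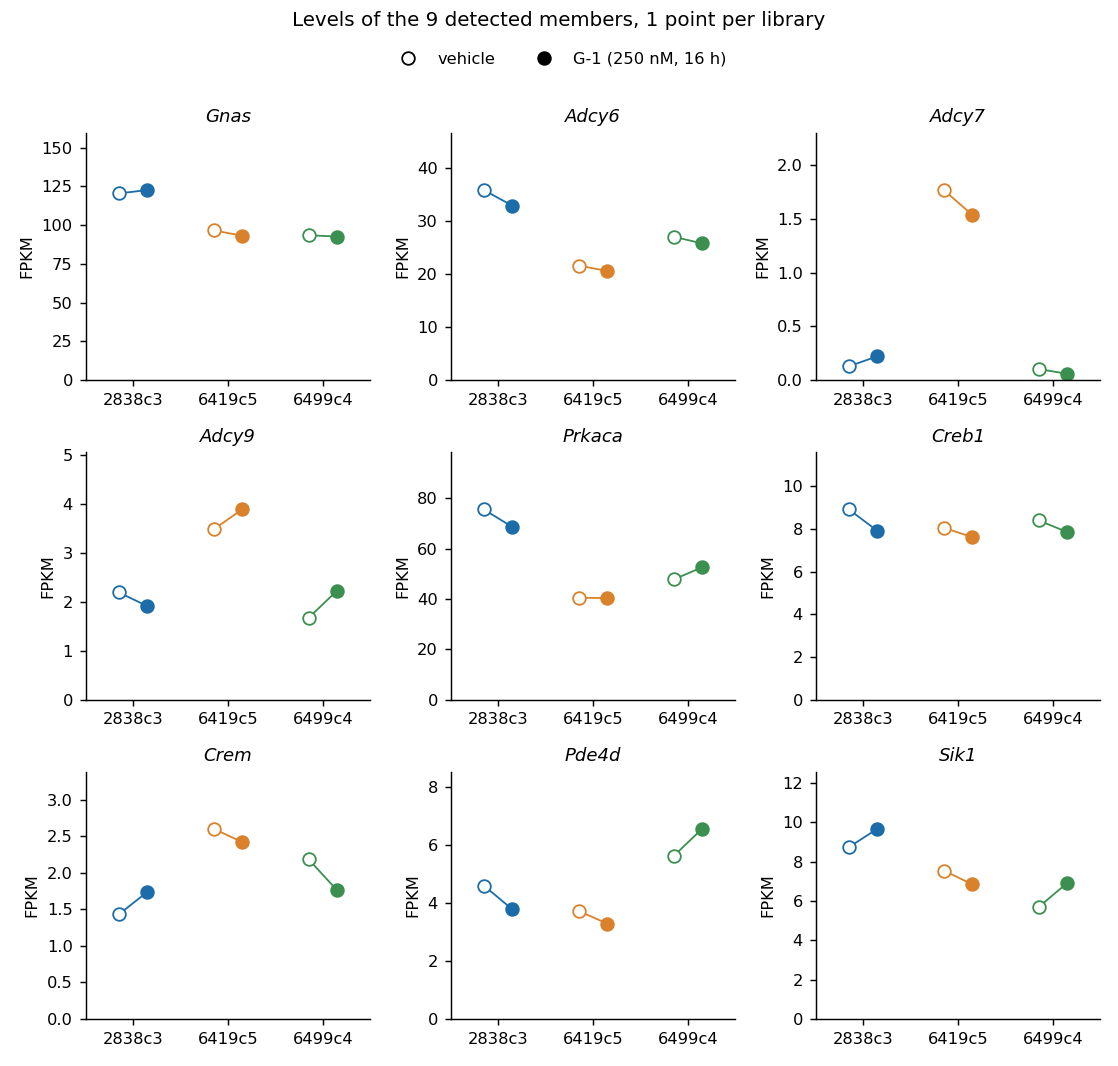
FPKM of the 9 members with reads, each panel with its own axis from 0, by cell line, with open circles for vehicle and filled circles for G-1 and 1 circle per library. For Gnas, Prkaca and Adcy6 both circles of 2838c3 lie above the other 4, for Adcy7 and Adcy9 both of 6419c5 do, and for Pde4d both of 6499c4 do.

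Taken in order of level per length, the means over the 6 libraries were 103.2 FPKM for Gnas, 54.2 for Prkaca, 27.3 for Adcy6, 8.12 for Creb1, 7.57 for Sik1, 4.59 for Pde4d, 2.56 for Adcy9, 2.02 for Crem, 0.637 for Adcy7 and 0 for Gper1. The ranges of Gnas, Prkaca and Adcy6 did not touch each other or those below. Creb1 (7.61 to 8.91 FPKM) and Sik1 (5.69 to 9.67) overlapped, Sik1 overlapped Pde4d (3.28 to 6.55), Pde4d overlapped Adcy9 (1.67 to 3.89), Adcy9 overlapped Crem (1.43 to 2.60), and Crem overlapped Adcy7 (0.0591 to 1.77). Gnas exceeded 93.4% of all tested genes in mean level, Prkaca 85.1% and Adcy6 70.0%, whereas Crem exceeded 8.21%.

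Between lines, 4 of the 8 members tested differed in 6419c5 against 2838c3 (Adcy9 higher, Gnas, Adcy6 and Prkaca lower), where 51.5% of all 10748 genes tested did. In 6499c4 against 2838c3, 5 of 8 differed (Pde4d higher, Gnas, Adcy6, Prkaca and Sik1 lower) beside 55.6% of all genes. In 6499c4 against 6419c5, 4 of 8 differed (Adcy6, Prkaca and Pde4d higher, Adcy9 lower) beside 45.0% of all genes. These shares lie near the background, so the members as a set did not stand out from other genes by how often they differed. The calls of Gnas and Prkaca in both comparisons with 2838c3, and that of Adcy6 in 6419c5 against 2838c3, held under all 13 alternatives run. The call of Adcy6 in 6499c4 against 2838c3 was lost without the vehicle library of 2838c3 (-0.34, adjusted p = 0.0603), and that in 6499c4 against 6419c5 without any 1 library of these lines (0.30 to 0.32, adjusted p = 0.0646 to 0.0917). Each line had 1 vehicle and 1 G-1 library, which are not repeats of a condition, and nothing says that they came from separate cultures, so these p-values measure the spread between such libraries only. Scaled by read totals in place of the deposited scale, the median of all genes moved to 0.11 in 6499c4 against 2838c3 and to 0.10 in 6499c4 against 6419c5, and the share of calls that were higher went from 47.9% to 60.4% and from 47.4% to 60.4%.

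**Figure D3:**
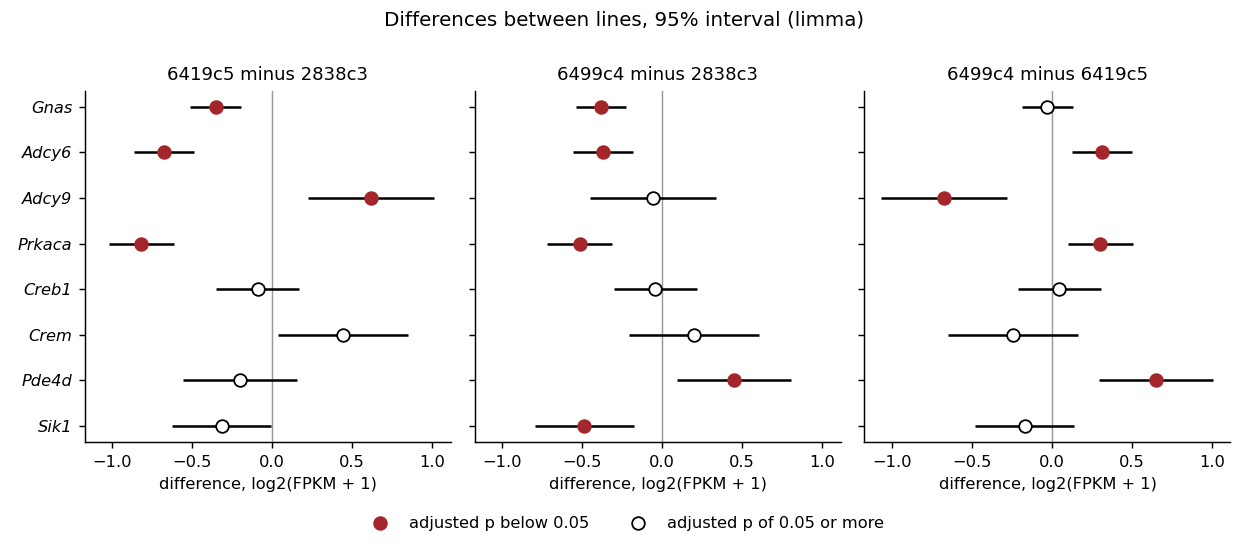
Differences between lines for the 8 tested members on the log2(FPKM + 1) scale, with 95% intervals from limma (6 libraries, treatment as a covariate) and filled circles where the adjusted p was below 0.05. Prkaca is -0.82 in 6419c5 minus 2838c3 and Adcy9 is 0.62, while the interval of Creb1 includes 0 in all 3 panels.

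No member was called under G-1. With limma and the line as a block, 0 of the 8 tested members passed an adjusted p of 0.05, 0 had an unadjusted p below 0.05, and limma-voom on the recovered reads also called 0, where limma called 3 of all 10748 genes (0.0279%). The mean difference, G-1 minus vehicle over the 3 lines, was -0.01 for Gnas (95% interval -0.14 to 0.12, adjusted p = 0.953), -0.00 for Prkaca (-0.17 to 0.16, adjusted p = 0.995) and -0.08 for Adcy6 (-0.24 to 0.07, adjusted p = 0.69). These are the members with the most reads, and their intervals reach no farther than -0.24 and 0.16 on this scale. For Creb1 the difference was -0.10 (-0.32 to 0.11, adjusted p = 0.721), for Sik1 0.08 (-0.17 to 0.34, adjusted p = 0.822) and for Pde4d -0.06 (-0.35 to 0.23, adjusted p = 0.895). Adcy9 (0.09, -0.23 to 0.41, adjusted p = 0.854) and Crem (-0.04, -0.37 to 0.30, adjusted p = 0.949) had the widest intervals. For Pde4d, Crem and Sik1, known targets of CREB, the intervals include changes in either direction. All these intervals are unadjusted and do not mark the smallest change that the adjusted test would call with 3 pairs of libraries. A p above the threshold does not show that levels were equal.

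The sign of the difference was the same in all 3 lines for 2 of the 8 tested members, Adcy6 and Creb1, both lower, and 32.9% of all genes tested had a common sign. For Adcy6 the differences were -0.12 in 2838c3, -0.07 in 6419c5 and -0.07 in 6499c4, and for Creb1 they were -0.15, -0.07 and -0.09. An exact sign-flip permutation test (two-sided, n = 3 lines) gave p = 0.25 for both, the smallest it can give. It gave 0.5 for Sik1 and 0.75 for Gnas, Adcy7, Adcy9, Prkaca, Crem and Pde4d.

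**Figure D4:**
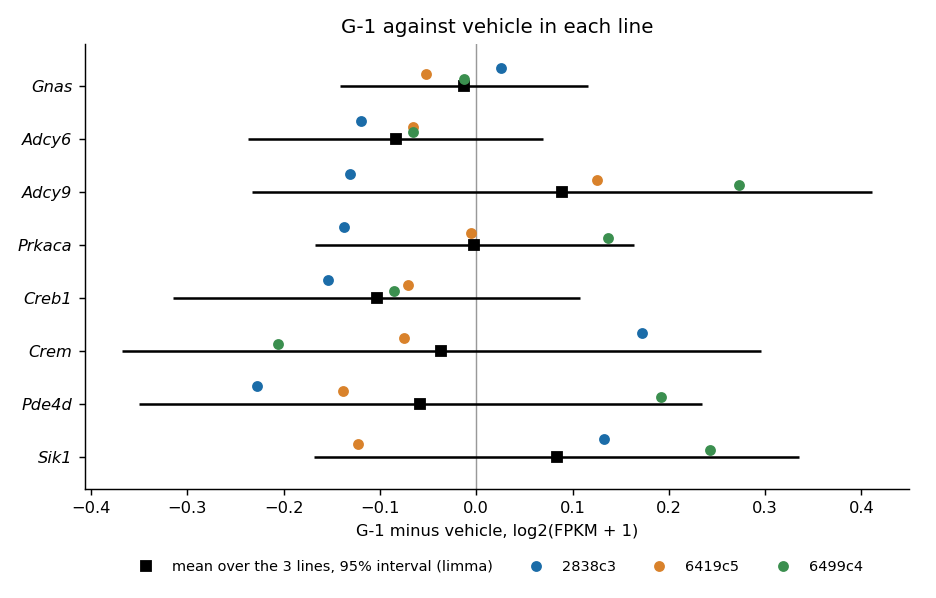
G-1 minus vehicle on the log2(FPKM + 1) scale for the 8 tested members, with coloured circles for the 3 lines and a black square with its 95% limma interval for their mean. All 8 intervals span 0, and the circles of Adcy6 and Creb1 lie below 0 in each line while those of Prkaca and Pde4d fall on both sides.

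Within single lines, the read ratios that exceeded counting error were all below 1 in 2838c3 and all above 1 in 6499c4, and this difference between lines was not tested. Of the 27 ratios of G-1 to vehicle (9 members in 3 lines, scaled as the authors' values), 8 had an exact 95% binomial interval that excluded 1, a share of 29.6%. The intervals cover counting error only. Over all genes tested the same share was 30.8% in 2838c3, 16.5% in 6419c5 and 35.6% in 6499c4, and the variance between the libraries of a line was a median of 4.12, 2.01 and 4.92 times what counting gives. In 2838c3 the 4 such ratios were all below 1. They were those of Adcy6 (0.918, 0.859 to 0.981), Prkaca (0.908, 0.845 to 0.975), Creb1 (0.887, 0.791 to 0.995) and Pde4d (0.822, 0.686 to 0.983). In 6499c4 the 4 were all above 1, namely Adcy9 (1.33, 1.04 to 1.71), Prkaca (1.10, 1.01 to 1.20), Pde4d (1.17, 1.01 to 1.35) and Sik1 (1.21, 1.01 to 1.46). In 6419c5, which had the fewest reads, 0 of the 9 excluded 1. The share of 29.6%, pooled over the lines, lies within the range of those of all genes. In a single line the share rests on 9 ratios. How many ratios of all genes lay above or below 1 in each line is not given here. The ratios of the 8 tested members ran from 0.806 (Crem in 6499c4) to 1.33.

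The rest of the pathway was read from 11 lists of 123 genes in all, 113 of them not members and 58 of those at or above 1 FPKM. Under G-1, limma called 0 of the 58. An unadjusted p below 0.05 was found for 8 of them (13.8%, beside 10.1% of all genes), and limma-voom on the recovered reads called 2, Junb (0.45, SE 0.08, adjusted p = 0.000715) and Areg (0.36, SE 0.09, adjusted p = 0.0335), among 168 genes of 10573. The median difference of the 58 was -0.00, against -0.01 over all genes, and 6 were higher (10.3%) and 19 lower (32.8%) in all 3 lines, where 15.4% of all genes were higher and 17.5% lower. For the 8 tested members the median was -0.02, and for the 16 tested CREB-responsive genes it was 0.10, with 4 higher (25.0%) and 1 lower (6.25%) in all lines. The differences with a common sign that were largest in each list belonged to genes at different steps: Ptger4, a prostaglandin receptor (0.37, SE 0.16), Gng12 (-0.14, SE 0.06) and Gnb1 (-0.08, SE 0.06) of the G protein beta-gamma dimer, Grk6 (-0.10, SE 0.07), a receptor kinase, and Prkar2b (-0.23, SE 0.11) and Prkacb (-0.15, SE 0.07) of PKA. Further along were the anchor Akap12 (-0.24, SE 0.14), the cAMP sensor Rapgef3 (-0.22, SE 0.14), Pde4a (-0.37, SE 0.15) and Pde3b (0.14, SE 0.12), the coactivators Crtc1 (-0.25, SE 0.10) and Crebbp (-0.17, SE 0.09), Sik2 (-0.37, SE 0.09), and the CREB-responsive genes Junb (0.45, SE 0.10) and Areg (0.36, SE 0.09). In limma with the line block their adjusted p ran from 0.3 for Junb to 0.719 for Pde3b. Sik2, a close relative of Sik1, had read ratios of 0.785, 0.702 and 0.757 in 2838c3, 6419c5 and 6499c4, each with an interval below 1, and Crtc1 had 0.836, 0.812 and 0.802. Akap11, a PKA anchor, had 0.868, 0.853 and 0.822, also each with an interval below 1, and Junb had 1.29, 1.15 and 1.73, each with an interval above 1. These 4 were the only list genes at or above 1 FPKM with an interval on the same side of 1 in all 3 lines (3 below and 1 above), where 1.47% of all genes tested lay below and 1.14% above. They were singled out after their values were seen.

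Receptors other than Gper1 that can feed the same pathway mostly had a mean below 1 FPKM. Of 22 Gs-coupled receptors, 10 had 0 reads in all libraries, 12 had reads in at least 1 library, and 2 reached a mean of 1 FPKM. Of all 24421 genes of the table, 15712 had reads in at least 1 library and 10748 reached a mean of 1 FPKM. Ptger4 stood at 0.211 and 0.458 FPKM for 2838c3, 2.19 and 2.43 for 6419c5, and 4.99 and 8.92 for 6499c4, and it differed between each pair of lines (6499c4 against 2838c3 2.54, SE 0.19, limma adjusted p = 4.98e-05). Adora2a, an adenosine receptor, ran the other way and was highest in 2838c3 (4.80 and 5.58 FPKM), with -1.44 in 6419c5 (adjusted p = 0.00123) and -1.98 in 6499c4 (adjusted p = 0.00023).

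Among G protein subunits, Gnai2, which encodes an inhibitory alpha subunit, shared with Gnas the higher level in 2838c3. Gnai2 stood at 212.9 and 214.0 FPKM there and at 101.3 to 114.5 in the other 4 libraries (-0.95 in 6419c5, limma adjusted p = 9.14e-05, and -1.01 in 6499c4, adjusted p = 4.73e-05). The summed FPKM of Gnai1, Gnai2 and Gnai3 was 2.14 to 2.79 times that of Gnas. Of 11 genes tested, 6 differed in 6419c5 against 2838c3 (Gnb1, Gnb4, Gng10 and Gng12 higher, Gnas and Gnai2 lower), and 8 in 6499c4 against 2838c3 (Gng5 and Gng10 higher, Gnas, Gnai2, Gnai3, Gnb1, Gnb4 and Gng12 lower). In 6499c4 against 6419c5, 5 were lower (Gnai1, Gnai3, Gnb1, Gnb4 and Gng12). The calls are 54.5%, 72.7% and 45.5% of the list, beside 51.5%, 55.6% and 45.0% of all genes tested. The list medians were 0.22, -0.38 and -0.29, against 0.00, -0.01 and 0.01 over all genes. Gnb2, the subunit with the highest mean, was not called in any pair. Of 6 genes of receptor desensitisation tested, the kinases Adrbk1 and Grk6 and the arrestin Arrb1 were lower in both lines than in 2838c3. Rgs2 was higher in 6419c5 than in 2838c3, Grk5 was lower in 6499c4 than in 2838c3, and Grk5, Arrb1 and Rgs2 were lower in 6499c4 than in 6419c5, whereas Arrb2 was not called. The call of Arrb1 in 6419c5 against 2838c3 held in 5 of 12 alternatives, as did that of Grk5 in 6499c4 against 2838c3, and that of Gng10 in the latter pair held in 5 of 13. The medians of the desensitisation list were -0.17, -0.62 and -0.37.

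Sensors, anchors and kinases downstream differed between lines in both directions. Among the CREB family and its coactivators, 3, 4 and 2 of 8 genes were called in the 3 pairs, all at a lower level. In each pair this was a smaller share than among all genes tested (51.5%, 55.6% and 45.0%). Crtc1 was among the calls in all 3 pairs. Of 9 sensors and anchors tested, Akap1, Akap12 and Akap13 were higher and Akap9 lower in 6419c5 than in 2838c3. Akap1, Akap7 and Akap13 were higher and Rapgef3 and Akap12 lower in 6499c4 than in 2838c3, and Akap7 was higher and Rapgef3 and Akap12 lower in 6499c4 than in 6419c5. Akap12 differed most, at 9.82 and 6.62 FPKM in 6419c5, 2.38 and 2.10 in 2838c3, and 0.297 and 0.22 in 6499c4, while Akap8 and Akap10 were not called. The medians of this list were 0.14, -0.09 and -0.09 in the same order of pairs. Its calls are 44.4%, 55.6% and 33.3% of its 9 genes, beside 51.5%, 55.6% and 45.0% of all genes tested. Of the 8 genes of the CREB family and its coactivators, all of them tested, Atf1, Crtc1 and Ep300 were lower in 6419c5 and, with Crebbp, in 6499c4 than in 2838c3, and Crtc1 and Crebbp were lower in 6499c4 than in 6419c5. Atf1, a close relative of Creb1, was the most abundant of the CREB family and supplied 68.4% to 76.9% of the summed FPKM of Creb1, Crem and Atf1, against 19.3% to 23.9% from Creb1 and 3.19% to 7.71% from Crem. The calls of Crtc1 held in 3 of 13 alternatives in 6419c5 against 2838c3 and in 5 of 13 in 6499c4 against 6419c5. Crtc2 was not called in any pair, and the medians were -0.07, -0.30 and -0.17. Sik2 and Sik3 were lower in 6419c5 than in 2838c3 and higher in 6499c4 than in 6419c5, and Sik1 was called by limma in neither of these comparisons. Sik1 was 17.2% to 27.9% of the summed FPKM of the 3 kinases, whose median differences were -0.42, -0.28 and 0.36. Of these 3 kinases 66.7%, 33.3% and 66.7% were called in the 3 pairs, beside 51.5%, 55.6% and 45.0% of all genes tested.

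CREB-responsive genes differed between lines by amounts of very different size. Ptgs2, the gene of cyclooxygenase 2, stood at 144.7 and 136.0 FPKM for 2838c3, 325.5 and 380.9 for 6419c5, and 10.8 and 10.6 for 6499c4 (6499c4 against 6419c5 -4.91, SE 0.09, limma adjusted p = 1.39e-07). Dusp1, a phosphatase of MAP kinases, had 34.2 and 33.3 FPKM for 2838c3, 16.4 and 16.1 for 6419c5, and 3.54 and 4.62 for 6499c4, and so was ordered differently. Of 16 genes tested, Nr4a1, Fos, Fosb, Areg, Ptgs2, Bdnf and Rgs2 were higher and Nr4a2 and Dusp1 lower in 6419c5 than in 2838c3 (median 0.41, against 0.00 over all genes). Egr1 and Pde4d were higher and Nr4a2, Dusp1, Areg, Atf3, Ptgs2, Bdnf and Sik1 lower in 6499c4 than in 2838c3 (median -0.37, against -0.01). Between 6499c4 and 6419c5 Pde4d was the only gene of this list called higher, and 11 were lower, namely Nr4a1, Fos, Fosb, Junb, Per1, Dusp1, Areg, Atf3, Ptgs2, Bdnf and Rgs2 (median -0.84, against 0.01). The calls are 56.25%, 56.25% and 75.0% of this list, beside 51.5%, 55.6% and 45.0% of all genes tested. In both comparisons with 2838c3 the share was thus near that of all genes. Of the members on that list, Pde4d was highest in 6499c4 and Sik1 in 2838c3, while Crem had its highest levels in 6419c5, as did the immediate early genes Fos and Nr4a1 (Fos 12.5 and Nr4a1 16.2 FPKM with vehicle). In 6499c4 against 2838c3, the calls of Nr4a2 and Bdnf each held in 6 of 12 alternatives. Over all lists without the members, 36, 38 and 31 of 58 genes differed in the 3 pairs of lines in the order above. These shares are 62.1%, 65.5% and 53.4%, beside 51.5%, 55.6% and 45.0% of all genes tested. Of these calls, 21, 25 and 14 held under every alternative run.

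**Figure D5:**
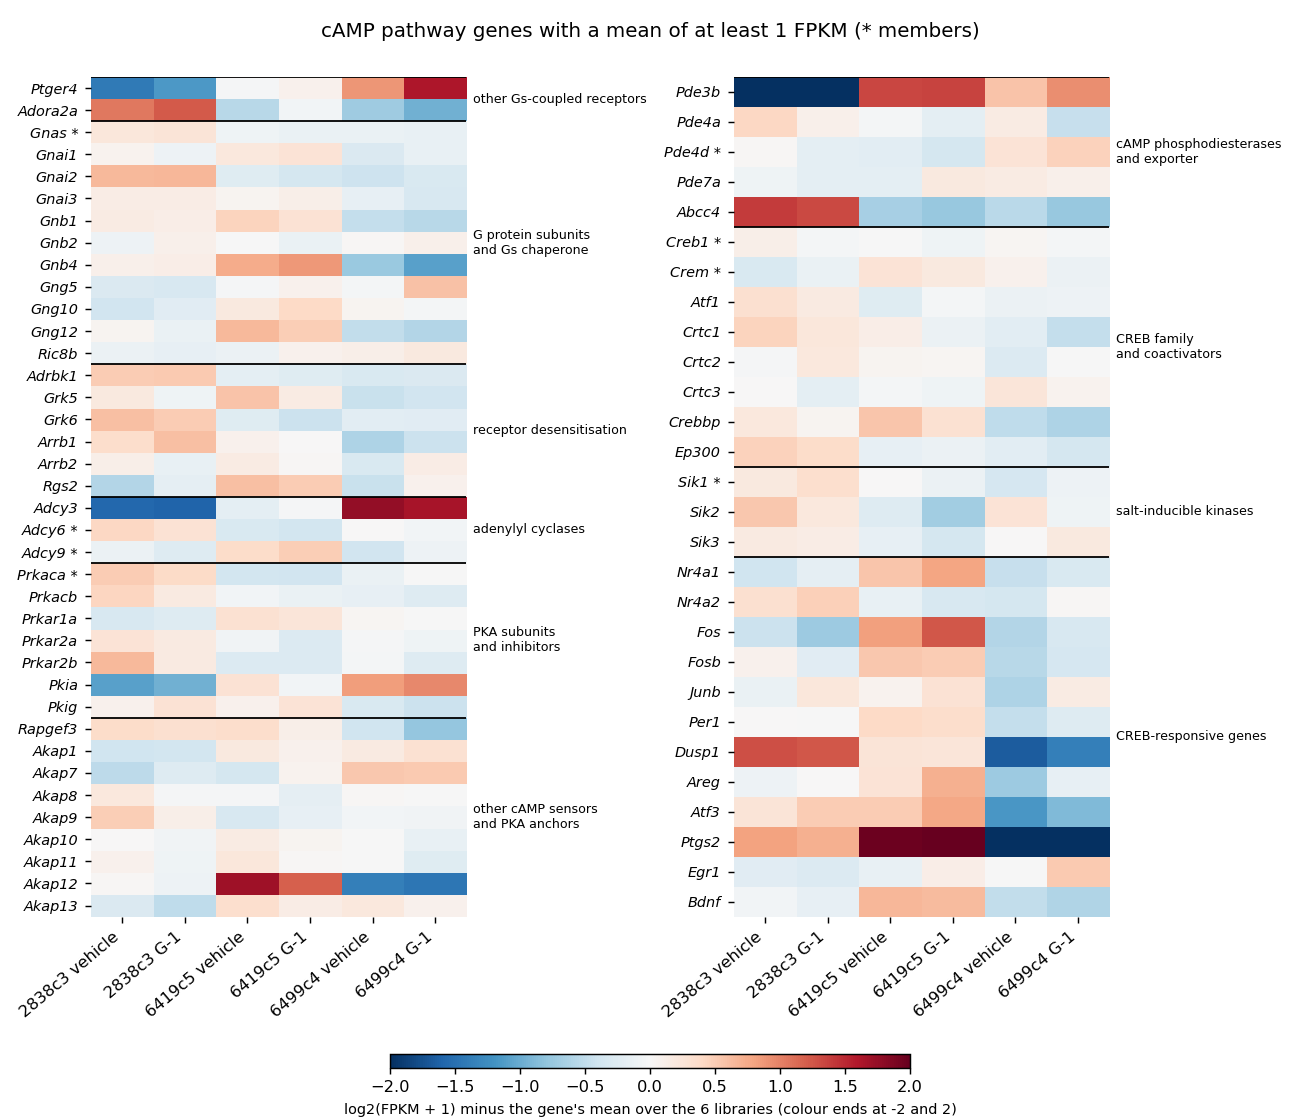
Each row is a gene of the pathway lists with a mean of at least 1 FPKM (members starred), each column a library, and the colour is log2(FPKM + 1) minus the mean of the gene over the 6 libraries, with colours ending at -2 and 2. Columns pair by line, and strong colours belong, among others, to Pde3b, Adcy3, Ptger4, Abcc4, Akap12, Dusp1 and Ptgs2. The 8 members drawn are pale. Gper1 and Adcy7, with a mean below 1 FPKM, are not drawn.

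The libraries held 5455990 to 8890821 reads in genes, fewest in the G-1 library of 6419c5, and 13071 to 13627 genes with reads. Of the 8 epithelial and ductal markers, 7 had a mean of at least 1 FPKM, with Krt8 at 795.4 to 1552 and Cdh1 at 168.6 to 352.4 FPKM. Epcam (0.284 to 5.81 FPKM) and Sox9 (0.602 to 2.73) were low, and Cldn4 did not reach 1 FPKM. Summed over each list, markers of fibroblasts, leukocytes, endothelium, acini and islets lay between 0 and 7.74 FPKM per library. In bulk RNA, fewer cells of a type and less RNA per cell cannot be told apart.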

How the data were processed

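The authors deposited 1 table of FPKM values for 24421 genes in 6 libraries, made with RNeasy RNA and a NEBNext Ultra kit, per the labels' protocols. The submitters' processing notes name STAR and DESeq2 without versions or roles. The sources used here give no genome build, annotation or strand setting.

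FPKM steps gave whole reads for 100% of the 15712 genes above 0 (tolerance 0.01 reads), and the FPKM scale equals median-of-ratios size factors. Sums of these reads are the depth. Intervals and floors cover counting error only, since no molecular identifiers were used. All columns of the table were used.

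Tests used limma 3.58.1 (R 4.3.3) on log2(FPKM + 1), a pseudocount of 1, for the 10748 genes whose mean reached 1 FPKM. This scale understates changes of low genes. The model had a variance trend and, for G-1, the line as a block. Each pair of lines was compared with treatment in the model (2 residual and 5.35 prior degrees of freedom). P-values are two-sided and Benjamini-Hochberg adjusted over all genes tested, with a threshold of 0.05. Libraries of a line deviated together (correlations 0.906, 0.871 and 0.882), so the line pairs them. With 1 library per line and treatment, p-values measure the spread between these libraries, which may be technical. The read recovery and the limma fits were tested on simulated data. The simulated G-1 changes were much larger than the differences of the members, so these runs do not show how often differences of that size are called.

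The members and lists were chosen with earlier results of these data known. Named genes are all members, all list genes called between lines, up to 3 per list with the highest mean FPKM, and up to 2 per list with the largest G-1 difference of common sign. Some genes of these lists are not reported here. The rule for genes of like pattern needed line means at least 2-fold apart in a tested member, which 0 members met. Coordinates are from GENCODE (GRCm38) and promoter windows from RefSeq (GRCm38.p6).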

Additional observations from a re-analysis of the deposited data

Results flagged for a closer look

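The ratio of G-1 to vehicle reads had counting intervals on opposite sides of 1 in 2 lines for 2 members. For Prkaca it was 0.908 in 2838c3 and 1.10 in 6499c4. For Pde4d it was 0.822 in 2838c3 and 1.17 in 6499c4. Each line has 1 library per treatment, so the difference between the lines was not tested, and the intervals cover counting error only. The variance between the libraries of a line was a median of 4.12 times the counting noise in 2838c3 and 4.92 times in 6499c4.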

How the results depend on the processing

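The alternatives were a pseudocount of 0.1, no level filter, a filter of 5 FPKM, quantile scaling, no variance trend, limma-voom on the recovered reads (mean of at least 10 reads), no line block, each line or library left out and, chosen after seeing the data, scaling by read totals. No replicate block meant 0 members called under G-1, as with the line block, and the mean differences were equal, so it changed no call. Under G-1, 0 members were called in any alternative. Sign changes under G-1, all far from the threshold, were Gnas with read totals (0.0035) and without 6419c5 (0.0062), Adcy9 without 6499c4 (-0.0029), Prkaca with read totals (0.0147) and without 2838c3 (0.0657), Crem without 6499c4 (0.0485) and Pde4d without 2838c3 (0.0267). At the other end, leaving out a line gave -0.0326 for Gnas, 0.199 for Adcy9, -0.0713 for Prkaca, -0.14 for Crem and -0.183 for Pde4d. Between lines, uncalled differences changed sign in 6499c4 against 2838c3 for Adcy9 with read totals (0.0355), without the vehicle library of 2838c3 (0.111) and without that of 6499c4 (0.0834; lowest -0.22), for Creb1 with read totals (0.077) and for Crem with quantile scaling (-0.0241). In 6499c4 against 6419c5 they did so for Gnas with quantile scaling (0.0306), read totals (0.0772) and without the vehicle library of 6419c5 (0.0012; lowest -0.057). Leaving out each library, 3 to 5 members were called in 6419c5 against 2838c3, 2 to 4 in 6499c4 against 2838c3 and 0 to 4 in 6499c4 against 6419c5, the lowest without either library of 6419c5. Each such fit leaves a line with 1 library, which is assumed to vary like the others. A filter of 5 FPKM, which tests fewer members, left 2 called in 6499c4 against 6419c5. The other alternatives left 3 to 6 members called per pair. The cause of the other losses was not tested. Depth limits Gper1, Adcy7 and Crem, with 0, 161 and 395 reads in all.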
